A study of Mus musculus with 28 samples.

Results

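Transcript levels of 7 C-type lectin receptor genes, Clec4e, Clec4d, Clec4n, Clec7a, Clec4a2, Clec4a3 and Clec5a, were followed in mouse bone marrow-derived dendritic cells stimulated through TLR9 or with double-stranded RNA. The genes were chosen by name from a family of receptors that drive myeloid cell activation, and they are 7 of the 24995 named genes present in both deposited sheets. The study set out to compare gene regulation by RelB, a subunit of NF-kB, with and without signalling through IFNAR, the receptor for type I interferons. It comprised 28 RNA-seq libraries, 1 for each combination of genotype, stimulus and time. Cells of 4 genotypes on a C57BL/6 background were used: cells lacking both genes (IFNARko;RelBko, the double knockout), RelBko, IFNARko and WT. All 4 were grown from femoral bone marrow with GM-CSF at 20 ng/ml and IL-4 at 10 ng/ml. Each genotype gave libraries at 1, 3 and 8 h after 0.1 µM CpG, libraries at 1, 3 and 8 h after high molecular weight Poly(I:C), and 1 unstimulated control labelled 1 h. Poly(I:C) stands at 10 ng/mL in the sample titles but at 10 µg/mL in the treatment protocol, so its dose is uncertain. The labels do not say which part of either gene was deleted, nor whether libraries came from separate mice or cultures. The p-values thus measure only the spread between these samples. That spread is taken over genotypes or times and includes real differences between them. In other part it may be technical, and it may hold no variation between separate mice or cultures.

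Activating C-type lectin receptors bind sugars and lipids of fungi, mycobacteria and damaged cells and pass the signal through ITAM motifs to the kinase Syk and the adaptor CARD9. Mincle (Clec4e), MCL (Clec4d) and Dectin-2 (Clec4n) couple to the FcRγ chain, whereas Dectin-1 (Clec7a), the β-glucan receptor, carries its own hemITAM and MDL-1 (Clec5a) pairs with the adaptor DAP12 (Tyrobp). Clec4a2 encodes DCIR, whose cytoplasmic tail holds an inhibitory ITIM, and Clec4a3 encodes the related DCIR3. The word activating therefore describes the known role of 5 of the 7 genes, goes against that of Clec4a2, and is not a sure description of Clec4a3.

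All 7 genes lie on chromosome 6 (GRCm38, GENCODE M21). Clec4a3, Clec4a2, Clec4n, Clec4d and Clec4e stand side by side with related genes within 337.4 kb (122952515 to 123289870), and Clec7a (129461591 to 129472779) and Clec5a (40574894 to 40585821) lie apart. The 250 bases before the annotated start are shown for the genes that rose most (Clec4e and Clec4d) and for those that fell with both stimuli (Clec7a and Clec5a), from RefSeq on GRCm38.p6, 5′ to 3′ along the gene. Capitals mark matches, on either strand, to a C/EBP core (TTNNGNAA) and a PU.1 core (GAGGAA), factors known for their role in myeloid genes.
Clec4e chr6:123289872-123290121, minus strand: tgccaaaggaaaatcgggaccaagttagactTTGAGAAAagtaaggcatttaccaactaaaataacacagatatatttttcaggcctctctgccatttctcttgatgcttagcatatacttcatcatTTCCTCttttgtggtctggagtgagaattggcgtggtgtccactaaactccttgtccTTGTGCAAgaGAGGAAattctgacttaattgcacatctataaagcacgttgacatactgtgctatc
Clec4d chr6:123261857-123262106, plus strand: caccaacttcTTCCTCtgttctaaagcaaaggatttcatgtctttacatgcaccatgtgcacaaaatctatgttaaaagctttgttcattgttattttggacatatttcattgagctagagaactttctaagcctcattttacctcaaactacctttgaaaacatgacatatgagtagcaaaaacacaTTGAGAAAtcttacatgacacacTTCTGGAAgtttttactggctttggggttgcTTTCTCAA
Clec7a chr6:129472780-129473029, minus strand: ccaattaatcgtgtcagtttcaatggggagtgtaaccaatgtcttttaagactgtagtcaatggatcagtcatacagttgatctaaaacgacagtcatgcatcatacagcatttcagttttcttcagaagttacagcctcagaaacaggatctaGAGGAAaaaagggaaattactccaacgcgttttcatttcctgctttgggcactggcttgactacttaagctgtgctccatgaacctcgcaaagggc
Clec5a chr6:40585806-40586055, minus strand: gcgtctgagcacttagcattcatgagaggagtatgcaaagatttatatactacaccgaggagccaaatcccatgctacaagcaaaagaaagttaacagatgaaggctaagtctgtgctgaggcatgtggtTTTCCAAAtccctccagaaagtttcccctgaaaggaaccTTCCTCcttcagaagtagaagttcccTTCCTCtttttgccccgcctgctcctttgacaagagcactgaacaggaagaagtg
Clec4e, Clec4d and Clec5a held C/EBP matches, and Clec7a had a PU.1 match alone of these motifs. Of the 8 start windows found for 6 of the members (Clec4n was not matched), 4 held the C/EBP letters and 6 the PU.1 letters, against 36.8% and 23.3% of 32851 RefSeq windows of the same length. Clec7a and Clec4a3 each gave overlapping windows, and the same PU.1 match of Clec7a is counted in both of its windows. The NF-kB letters GGGNNNNNCC occurred in 0 of the 8 windows and in 45.8% of all windows, the interferon-response letters GAAANNGAAA in 0 and in 2.98%, and the STAT letters TTCNNNGAA in 1 (Clec4a2) and in 7.02%. These are matches of letters in a short window and describe no binding.

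Depth was 3269933 to 42227938 reads per library, lowest in the IFNARko and double-knockout CpG 8 h libraries. Values are counts per 1000000 reads (CPM), which are not scaled for transcript length, so levels of different genes are not ranked against each other. Members rested on at least 76 reads in each library. In bulk RNA, fewer cells of a type and less RNA per cell cannot be told apart. Over the 7 conditions, Ifnar1 stood at 0.489 to 0.931 of WT in the double knockout and 0.478 to 0.772 of WT in IFNARko cells. Relb stood at 0.613 to 1.34 of WT in the double knockout, where it was below WT in 3 conditions, and at 0.675 to 0.998 of WT in RelBko cells. Set against IFNARko cells, Relb in the double knockout stood at 0.613 to 0.851 and was lower in all 7 conditions. Transcripts of both targeted genes were thus still counted, and since the deleted parts are not known, these levels do not check the RelBko labels. Dendritic cell markers such as Itgax, the MHC class II genes and Zbtb46 were present in all 28 libraries, while Cd209a had no read in 20 of them and Xcr1 none in 11. Other markers of the list were low, with medians of 8.60 CPM for Kit, 5.71 for Flt3, 3.08 for Clec9a and 2.91 for Itgae. Summed macrophage and monocyte markers (19 of 20 in the files) spanned 1966 to 4073 CPM over the double-knockout libraries, 2247 to 4630 over RelBko, 1728 to 3599 over IFNARko and 4834 to 7220 over WT, so the WT cultures held the most of this RNA. Lyz2 and Gpnmb had the highest medians of this list (702 and 553 CPM), so the sum leans on few genes and is not a measure of macrophage content. Summed dendritic cell markers (19 of 19) spanned 10513 to 11739 CPM over the double-knockout libraries, 13337 to 15601 over RelBko, 14982 to 16754 over IFNARko and 11364 to 14649 over WT, so the double knockout lay below RelBko and IFNARko libraries without overlap. Most of this sum came from Cd74 (median 6167 CPM) and the MHC class II genes H2-Aa, H2-Eb1 and H2-Ab1 (medians 2052, 1432 and 1420 CPM). It thus mainly follows antigen-presentation genes and is not a measure of dendritic cell content. Xist was at 713 to 1042 CPM in double-knockout and 445 to 832 CPM in WT libraries but at no more than 0.879 CPM in RelBko and IFNARko libraries, whose Y-linked genes were present. Each single-gene difference in genotype below is thus also a difference in sex-linked transcripts, and the 2 cannot be told apart. The double knockout and WT share the Xist-positive state, and IFNARko and RelBko share the Y-positive state.

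Clec4e, Clec4d and Clec4n rose with both stimuli. Clec4e encodes Mincle, a receptor for mycobacterial cord factor. Its levels in the control and 1, 3 and 8 h after CpG were 34.0, 40.7, 178 and 156 CPM in double-knockout cells, 71.6, 117, 584 and 515 CPM in RelBko cells, and 14.6, 35.3, 169.7 and 176 CPM in IFNARko cells. In WT cells the same series was 45.0, 81.0, 724 and 941 CPM. Levels climbed between 1 and 3 h in all 4 genotypes and were lower at 8 than at 3 h in the 2 genotypes without RelB. After Poly(I:C), double-knockout cells had 31.0, 41.9 and 46.5 CPM and RelBko cells 88.6, 204 and 178 CPM. IFNARko cells had 17.4, 32.5 and 53.0 CPM and WT cells 59.2, 309 and 326 CPM. The highest Poly(I:C) value in cells lacking IFNAR (53.0 CPM) lay below the lowest in cells with IFNAR (59.2 CPM). The share of all genes with such a gap was not counted, so this only describes Clec4e.

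Clec4d encodes MCL, which forms a complex with Mincle and lies beside it in the genome. In the control and at 1, 3 and 8 h of CpG, double-knockout cells had 14.3, 13.6, 30.0 and 52.2 CPM and RelBko cells 32.2, 26.8, 78.7 and 120.3 CPM. IFNARko cells had 10.6, 10.4, 25.2 and 52.9 CPM, against 36.6, 35.5, 102 and 198 CPM for WT cells. Clec4d was near its control level at 1 h and was still climbing between 3 and 8 h in each genotype. With Poly(I:C), double-knockout cells had 14.3, 17.4 and 31.2 CPM and RelBko cells 32.2, 66.1 and 110.3 CPM. IFNARko cells had 11.9, 17.4 and 36.4 CPM, against 31.5, 81.7 and 139 CPM for WT cells. The genotypes formed 2 bands, low without IFNAR and high with it, and the bands were apart in the controls already.

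Clec4n encodes Dectin-2, a receptor for fungal mannans. Double-knockout cells held 381 CPM in the control, then 338, 497 and 648 CPM over the CpG series and 352, 463 and 417 CPM with Poly(I:C). IFNARko cells held 283 CPM in the control, then 263, 571 and 905 CPM over the CpG series and 239, 420.3 and 839.7 CPM with Poly(I:C). The IFNARko level thus came close to the IFNAR-sufficient ones by 8 h of CpG, and the double knockout stayed lower. RelBko cells held 583 CPM in the control, then 469, 982 and 940.0 CPM over the CpG series and 505, 959 and 1252 CPM with Poly(I:C). WT cells held 496 CPM in the control, then 483, 999 and 1115 CPM over the CpG series and 479.5, 870.3 and 1221 CPM with Poly(I:C). RelBko cells were at 0.843 to 1.18 of WT over the 7 conditions, so these 2 genotypes ran close together.

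**Figure D1:**
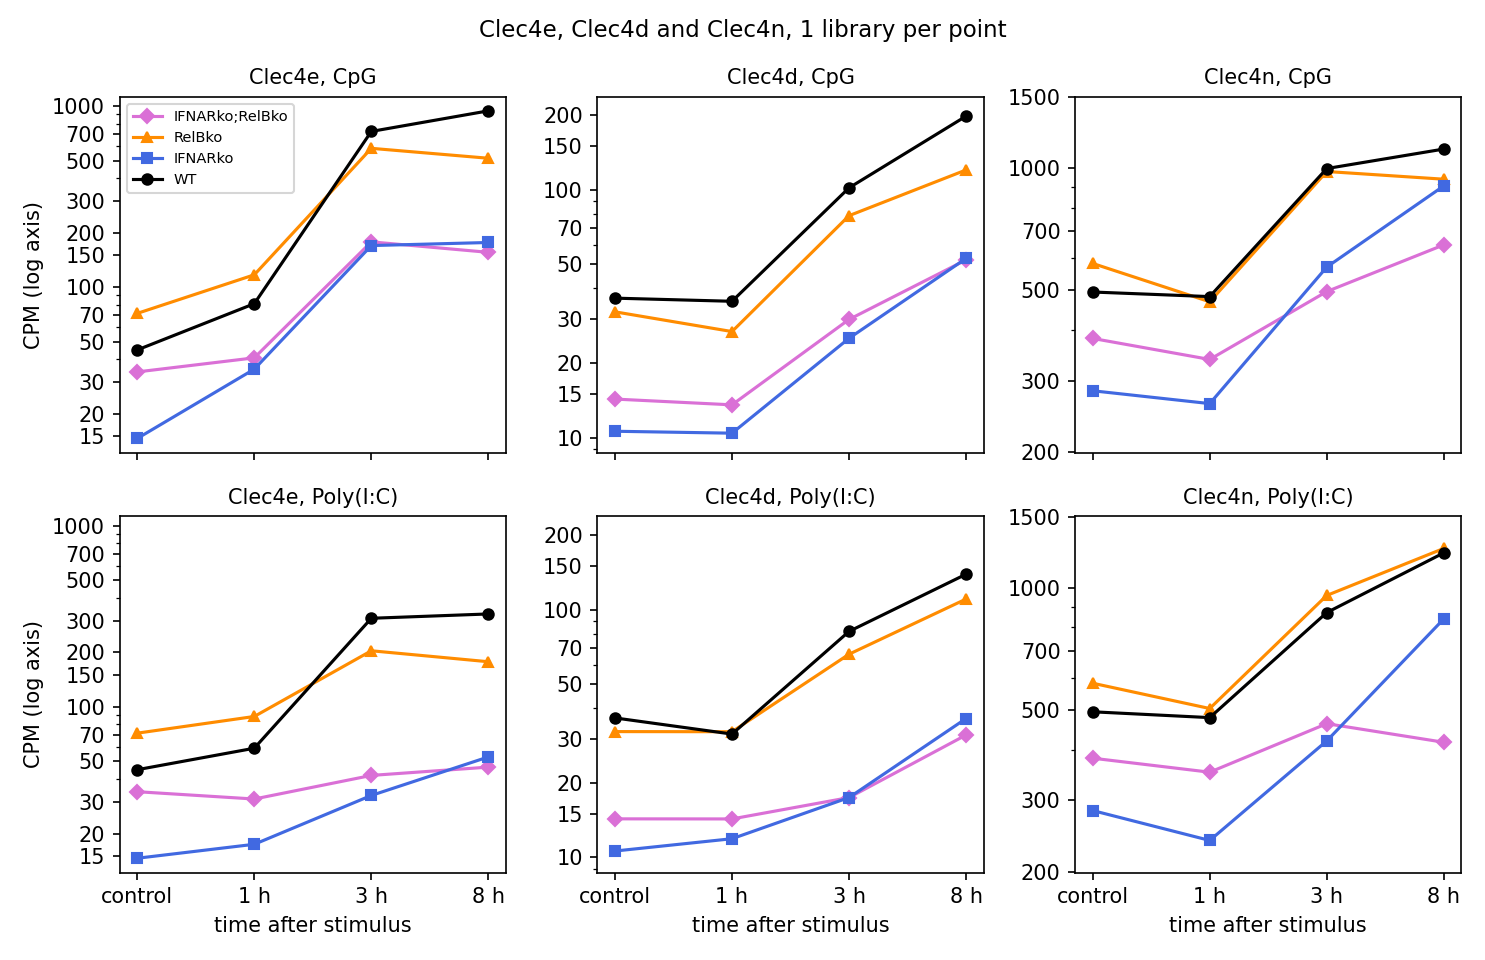
Levels of Clec4e, Clec4d and Clec4n in CPM (log axis) in the unstimulated control and 1, 3 and 8 h after CpG (top) or Poly(I:C) (bottom). Each point is 1 library and lines join libraries of a genotype. Clec4e and Clec4d in IFNARko;RelBko and IFNARko libraries lie below RelBko and WT libraries at each time after either stimulus.

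Clec7a and Clec5a fell with both stimuli. Clec7a, the β-glucan receptor, was at 442, 457, 224 and 167 CPM in the double-knockout control and at 1, 3 and 8 h of CpG, and at 847, 813, 478 and 247 CPM in RelBko cells. IFNARko cells had 768, 762, 464 and 343 CPM, against 1039, 1139.8, 685 and 522 CPM for WT cells. The decline appeared at 3 h and deepened by 8 h in all 4 genotypes. With Poly(I:C), double-knockout cells had 462, 350.3 and 270.0 CPM and RelBko cells 913, 636 and 585 CPM. IFNARko cells had 768, 633 and 627 CPM, against 1113, 751 and 816 CPM for WT cells. Double-knockout libraries were the lowest and WT libraries the highest in each of the 7 conditions.

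Clec5a encodes the DAP12-coupled receptor MDL-1. Double-knockout cells held 84.7 CPM in the control, then 91.4, 70.6 and 48.5 CPM over the CpG series and 86.9, 55.3 and 42.6 CPM with Poly(I:C). RelBko cells held 148 CPM, then 149.7, 118 and 47.3 CPM over the CpG series and 149.9, 107 and 50.1 CPM with Poly(I:C). Both genotypes had their lowest levels at 8 h. IFNARko cells held 99.9 CPM, then 101, 93.6 and 33.6 CPM over the CpG series and 102, 69.0 and 48.2 CPM with Poly(I:C). WT cells held 134 CPM, then 143, 113 and 52.1 CPM over the CpG series and 143, 100.1 and 57.8 CPM with Poly(I:C). These 2 genotypes also had their lowest levels at 8 h with either stimulus, and the 4 genotypes lay closer together there than in the controls.

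The DCIR genes showed mixed changes. Clec4a2 ranged from 72.0 to 124 CPM over the 7 double-knockout libraries, from 69.2 to 149 CPM over those of RelBko, from 70.6 to 135 CPM over those of IFNARko and from 65.7 to 153 CPM over those of WT. In RelBko, IFNARko and WT cells its lowest value was that at 8 h after CpG (69.2, 70.6 and 65.7 CPM), whereas the double knockout held 89.1 CPM there. Its exonic sequence shares 6.69% of 50-base stretches with other genes, mostly Clec4a4, so its counts could hold some reads of that gene. Clec4a3, the DCIR3 gene, stood at 35.0 CPM in the double-knockout control, against 83.9 CPM (RelBko), 89.3 CPM (IFNARko) and 92.5 CPM (WT). In the double knockout it was 29.4, 35.5 and 56.4 CPM over the CpG series and 31.3, 54.2 and 64.2 CPM with Poly(I:C), so this genotype started lowest and was higher at 8 h than in its control. The other genotypes held 57.5 CPM (RelBko), 48.0 CPM (IFNARko) and 58.8 CPM (WT) at 8 h of CpG, and with Poly(I:C) 86.0, 85.4 and 68.6 CPM. The gap seen in the controls was thus narrow or absent at 8 h of CpG.

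**Figure D2:**
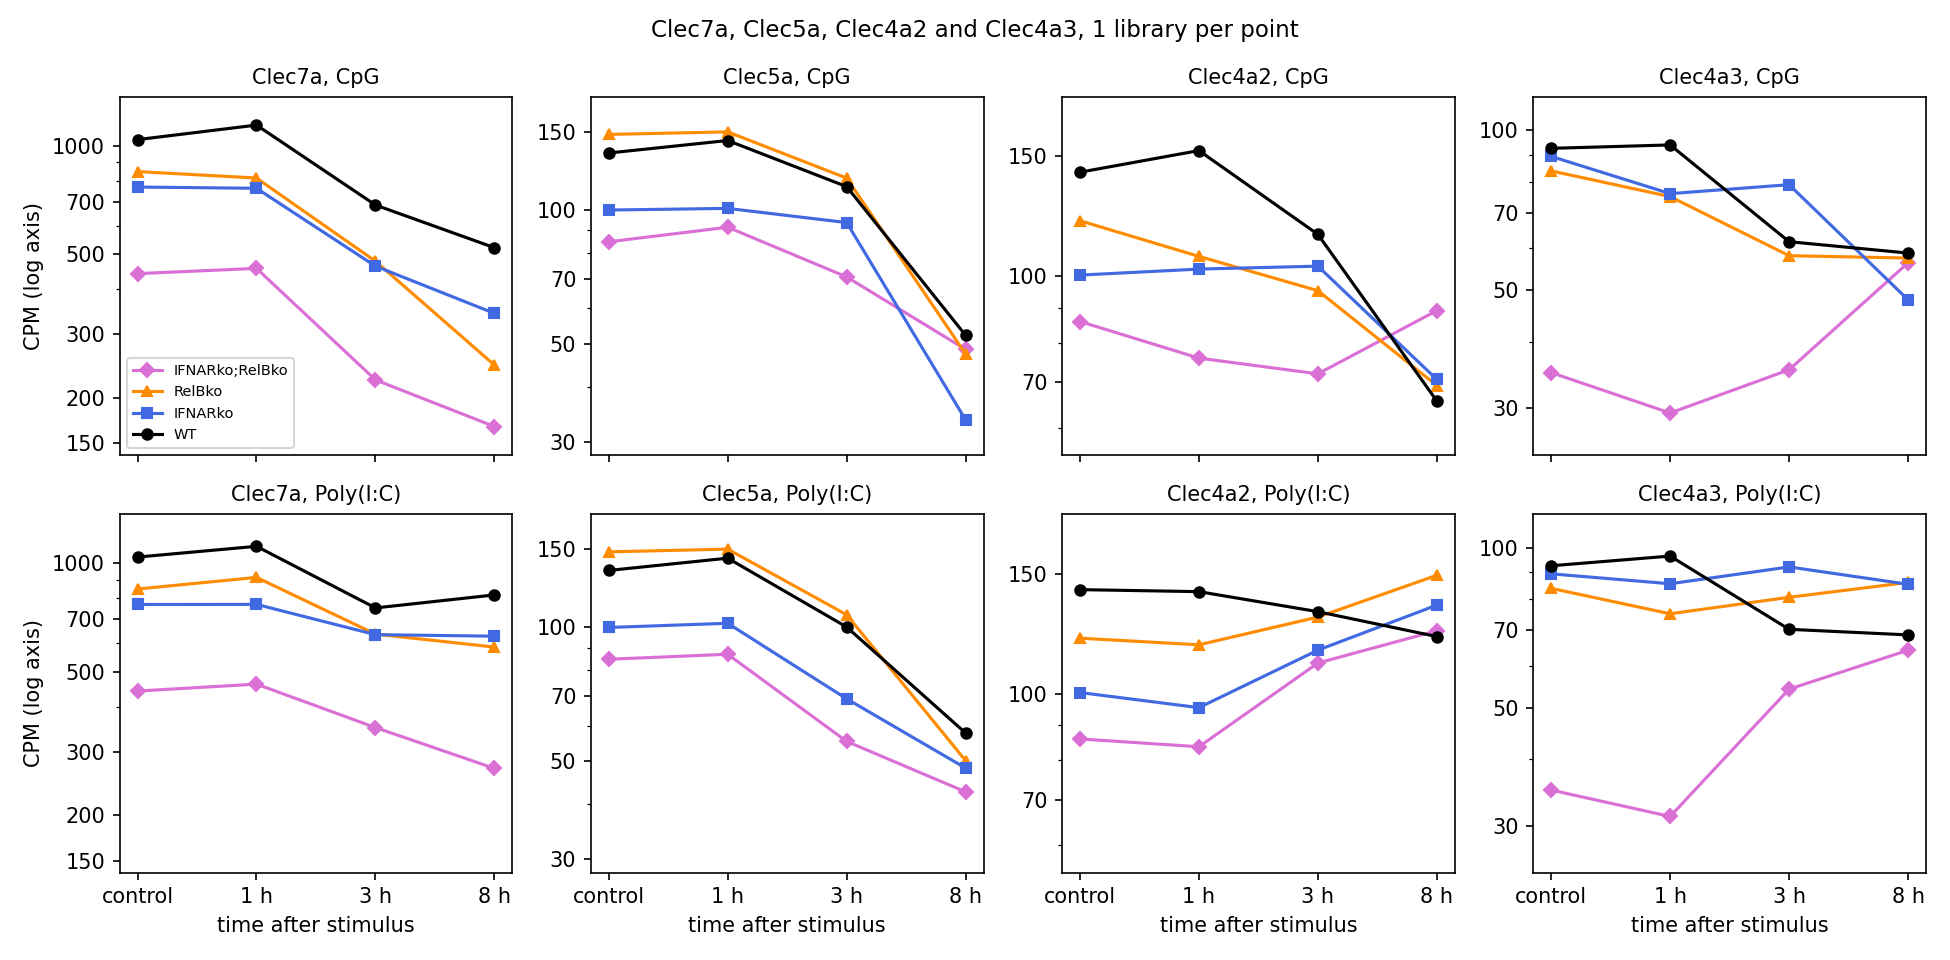
Levels of Clec7a, Clec5a, Clec4a2 and Clec4a3 in CPM (log axis) in the control and 1, 3 and 8 h after CpG (top) or Poly(I:C) (bottom), 1 library per point. Clec7a and Clec5a decline in each genotype, and Clec4a3 starts near 35.0 CPM in IFNARko;RelBko libraries while the other 3 genotypes start between 83.9 and 92.5 CPM.

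The response to CpG was tested over the 4 genotypes with limma, as the log2 difference of CPM plus 1 between stimulated and control libraries. At 1 h, 0 of 7 members passed at an adjusted p of 0.05 (0.508% of all genes did), 1 of them had an unadjusted p under 0.05, and voom called 0. That member was Clec4e, at 0.75 ± 0.30 (SE) with an adjusted p of 0.72. At 3 h, 3 of 7 members were higher (12.4% of genes) and 1 was lower (31.9% of genes). Clec4e rose by 3.20 ± 0.30 (adjusted p = 2.5e-05), Clec4d by 1.23 ± 0.10 (adjusted p = 8.9e-08) and Clec4n by 0.79 ± 0.14 (adjusted p = 0.00061), and Clec7a fell by 0.78 ± 0.10 (adjusted p = 1e-05). At 8 h, 3 members were higher (15.3% of genes) and 3 lower (38.8% of genes), with a median over the 7 of -0.35, against -0.17 over all genes. Clec4e stayed at 3.21 ± 0.30 (adjusted p = 1.6e-05), while Clec4d had risen further to 2.07 ± 0.10 (adjusted p = 1.3e-10) and Clec4n to 1.07 ± 0.14 (adjusted p = 3.6e-05). Clec7a and Clec5a both fell by 1.33, with SE of 0.10 and 0.11 and adjusted p of 2.1e-08 and 1.7e-07. Clec4a2, the ITIM receptor, fell by 0.59 ± 0.17 (adjusted p = 0.012), a call that was lost without WT (-0.41, adjusted p = 0.055), RelBko (-0.52, adjusted p = 0.095) or IFNARko libraries (-0.61, adjusted p = 0.052). Clec4a3 did not pass, at -0.35 ± 0.24 (adjusted p = 0.25), but did without the double knockout (-0.69, adjusted p = 0.00024). Clec5a at 3 h was at -0.23 ± 0.11 (adjusted p = 0.11), and at -0.22 (adjusted p = 0.046) without the double knockout.

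After Poly(I:C), Clec4e, Clec4d and Clec4n rose and Clec7a and Clec5a fell. Both stimuli were set against the same 4 control libraries. At 1 h, 0 of 7 passed (0.331% of genes did), 0 had an unadjusted p under 0.05 and voom called 0. At 3 h, 2 members were higher (13.9% of genes) and 2 lower (9.71% of genes). Clec4e rose by 1.41 ± 0.38 (adjusted p = 0.026) and Clec4d by 0.77 ± 0.15 (adjusted p = 0.0031), while Clec7a fell by 0.37 ± 0.07 (adjusted p = 0.0013) and Clec5a fell by 0.50 ± 0.09 (adjusted p = 0.00065). The Clec4e call at 3 h was lost without WT (0.96, adjusted p = 0.051), RelBko (1.38, adjusted p = 0.15) or IFNARko libraries (1.51, adjusted p = 0.097), and the Clec4d call without RelBko (0.69, adjusted p = 0.053). Clec4n stood at 0.59 ± 0.21 (adjusted p = 0.071), which passed without the double knockout (0.70, adjusted p = 0.00063). At 8 h, 3 members were higher (18.9% of genes) and 2 lower (24.1% of genes), with a median of 0.25 against -0.03 over all genes. Clec4d rose by 1.60 ± 0.15 (adjusted p = 4.2e-06), Clec4e by 1.59 ± 0.38 (adjusted p = 0.008) and Clec4n by 1.02 ± 0.21 (adjusted p = 0.0036). Clec5a fell by 1.19 ± 0.09 (adjusted p = 5e-08) and Clec7a fell by 0.47 ± 0.07 (adjusted p = 6.4e-05). Clec4e at 8 h lost its call without RelBko (1.69, adjusted p = 0.051) or IFNARko libraries (1.52, adjusted p = 0.06). Clec4a2 was at 0.25 ± 0.10 (adjusted p = 0.059), and passed when WT, the one genotype in which it declined, was left out (0.42, adjusted p = 0.00022).

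CpG and Poly(I:C) were then compared at the same times over the 4 genotypes. At 1 h, 0 of 7 members differed (1.22% of genes did), 0 had an unadjusted p under 0.05, and voom called 0. At 3 h, 2 members were higher with CpG (8.02% of genes) and 1 was lower (31.7% of genes). Clec4e was higher with CpG by 1.79 ± 0.29 (adjusted p = 0.0002) and Clec4d by 0.45 ± 0.14 (adjusted p = 0.014), whereas Clec7a was lower, at -0.41 ± 0.10 (adjusted p = 0.0028). With median-ratio size factors, which shift the median of all genes in this contrast by 0.15, the Clec7a difference at 3 h was -0.23 (adjusted p = 0.095). At 8 h, 2 members were higher (7.48% of genes) and 2 lower (23.4% of genes): Clec4e stood at 1.62 ± 0.29 (adjusted p = 0.00066), Clec4d at 0.47 ± 0.14 (adjusted p = 0.014), Clec7a at -0.86 ± 0.10 (adjusted p = 1.6e-06) and Clec4a2 at -0.84 ± 0.16 (adjusted p = 0.00063). Clec4d lost its call at both times without IFNARko libraries (0.44 and 0.45, adjusted p = 0.084 and 0.092). Clec4n did not differ detectably between the stimuli at 8 h, at 0.05 ± 0.19 with a 95% interval from -0.36 to 0.46 (adjusted p = 0.87). Clec5a was at -0.14 ± 0.12 with an interval from -0.38 to 0.10 (adjusted p = 0.39).

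**Figure D3:**
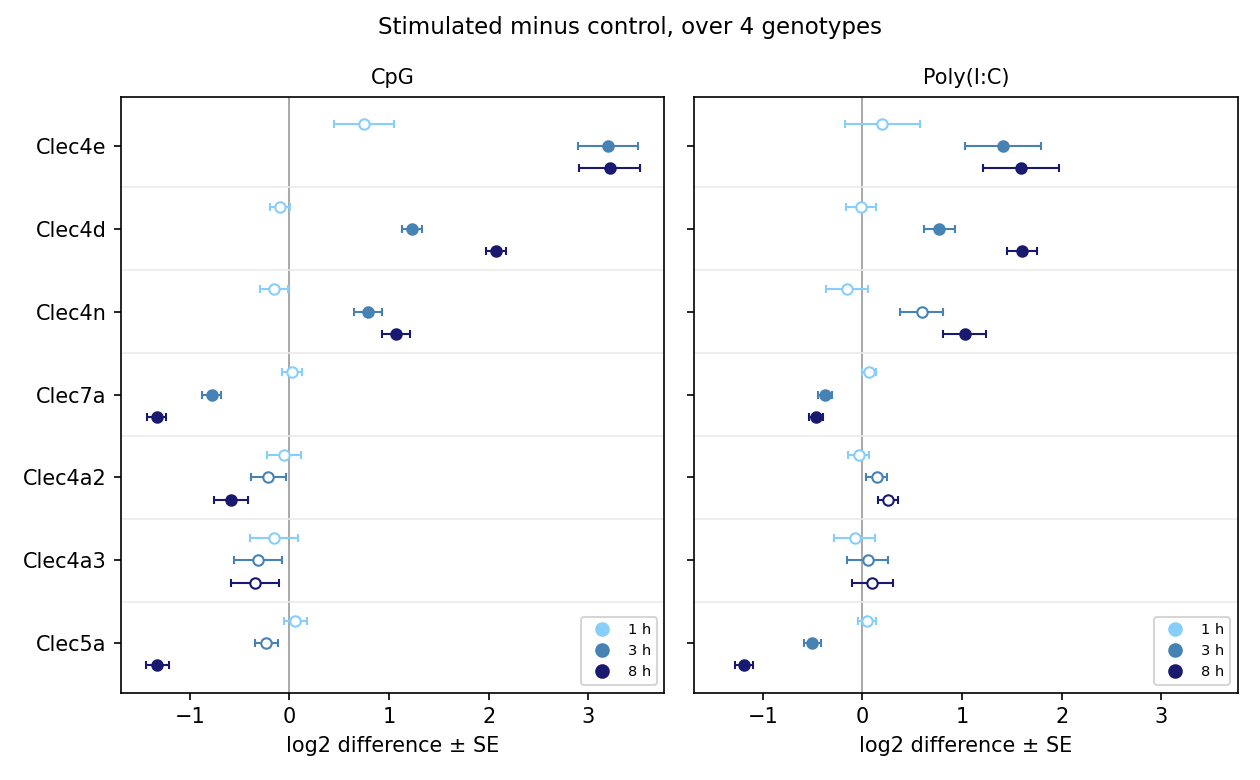
Log2 difference between stimulated and control libraries for each gene 1, 3 and 8 h after CpG (left) or Poly(I:C) (right), estimated over 4 genotypes, with bars for the SE. Filled points passed at an adjusted p of 0.05. Clec4e reaches 3.20 and 3.21 with CpG at 3 and 8 h, and Clec7a and Clec5a lie at -1.33 at 8 h.

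Loss of IFNAR went with lower levels of 5 to 7 of the members, led by Clec4e and Clec4d. Estimates average 1, 3 and 8 h within a stimulus. IFNARko cells given CpG had lower levels of 5 of 7 members than WT cells, against 8.03% of all genes, with a median of -0.58 against 0.14 over all genes. The differences were -1.89 ± 0.27 for Clec4e (adjusted p = 0.0017), -1.85 ± 0.12 for Clec4d (adjusted p = 6.6e-08), -0.66 ± 0.15 for Clec4n (adjusted p = 0.0056), -0.58 ± 0.11 for Clec7a (adjusted p = 0.0014) and -0.46 ± 0.14 for Clec5a (adjusted p = 0.025). In the double knockout against RelBko, 5 of 7 members were lower, against 8.3% of all genes. The differences were -1.64 ± 0.27 for Clec4e (adjusted p = 0.0035), -1.16 ± 0.12 for Clec4d (adjusted p = 7.8e-06), -0.66 ± 0.15 for Clec4n (adjusted p = 0.0056), -0.83 ± 0.11 for Clec7a (adjusted p = 9.8e-05) and -0.47 ± 0.14 for Clec5a (adjusted p = 0.023). The calls of Clec4e, Clec4n and Clec5a were lost in both contrasts without 3 h, where only 2 times remain (Clec4e at -1.79 with an adjusted p of 0.068 and -1.61 with 0.083), and those of Clec5a also without 1 h (-0.44 with 0.10 and -0.35 with 0.18). Macrophage and monocyte markers moved with this difference: 11 of 19 were lower in IFNARko than in WT cells and 1 was higher, with a median of -0.87. Summed markers of mast cells, basophils and eosinophils (10 of 12 in the files) spanned 75.0 to 98.0 CPM over the double-knockout libraries, 9.44 to 33.9 over RelBko, 104 to 138 over IFNARko and 9.19 to 36.3 over WT, and those of T, B and NK cells (15 of 15) spanned 60.9 to 84.0, 143 to 210, 575 to 1105 and 113 to 234 CPM in the same order. The part of these markers in the result was not tested.

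With Poly(I:C), IFNARko cells had lower levels of 5 of 7 members than WT cells (9.41% of all genes). The differences were -2.51 ± 0.39 for Clec4e (adjusted p = 0.0029), -1.80 ± 0.18 for Clec4d (adjusted p = 3.9e-05), -0.86 ± 0.27 for Clec4n (adjusted p = 0.039), -0.42 ± 0.11 for Clec5a (adjusted p = 0.0087) and -0.39 ± 0.09 for Clec7a (adjusted p = 0.0042). In the double knockout against RelBko, 7 of 7 members were lower (10.3% of all genes), with a median of -0.98 against 0.15. The differences were -1.88 ± 0.39 for Clec4e (adjusted p = 0.0095), -1.59 ± 0.18 for Clec4d (adjusted p = 0.00012), -1.05 ± 0.27 for Clec4n (adjusted p = 0.019) and -0.98 ± 0.09 for Clec7a (adjusted p = 5e-06). Clec5a was at -0.65 ± 0.11 (adjusted p = 0.00064), Clec4a3 at -0.74 ± 0.25 (adjusted p = 0.047) and Clec4a2 at -0.33 ± 0.12 (adjusted p = 0.047). No set of 2 times kept all 7 calls: 6 were left without 1 h, 3 without 3 h and 5 without 8 h. Clec4a2 and Clec4a3, both close to the threshold, lost their calls without 3 h (-0.38 with an adjusted p of 0.18, and -0.83 with 0.18), and Clec4a2 also without 1 h (-0.24 with 0.058) and Clec4a3 without 8 h (-0.90 with 0.086). Without 3 h the calls of Clec4e (IFNARko against WT -2.15 with an adjusted p of 0.053, and double knockout against RelBko -1.70 with 0.086) and Clec4n (-0.77 with 0.25, and -1.05 with 0.14) were lost in both contrasts. The Clec4e call in the double knockout was also lost without 8 h (adjusted p = 0.094). In IFNARko against WT, Clec5a lost its call without 3 h (-0.37 with 0.095) and 1 h (-0.39 with 0.065), and Clec4n also without 1 h (-0.79 with 0.098). Of 17 dendritic cell markers, 11 were lower (10.3% of all genes) and 4 higher in the double knockout against RelBko. In IFNARko against WT cells, 1 of 17 was lower (9.41% of all genes) and 9 were higher. The shares of all genes that were higher are not given for these contrasts, so the counts of higher markers only describe the list. The part of these markers was not tested.

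The values by library, which are those used in the tests above, were also set side by side at each time. For Clec4e, Clec4d and Clec4n, both libraries lacking IFNAR were below both libraries with IFNAR at 3 of 3 times after CpG and at 3 of 3 times after Poly(I:C). Clec5a showed this at 2 times of CpG and 3 times of Poly(I:C), and Clec7a at 2 times of each. The share of all genes with such a split was not counted, so these counts only describe the members. Genotypes of the same sex-linked state were compared as well. Clec4e in the double knockout was 0.136 to 0.756 of WT over the 7 conditions and in IFNARko 0.159 to 0.343 of RelBko. For Clec4d the double knockout was 0.214 to 0.455 of WT, and IFNARko 0.264 to 0.44 of RelBko. These pairs also differ in RelB, and the part of the sex-linked state in the differences was not tested.

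Because the unstimulated levels differed as well, the size of the response was compared between IFNAR states over all 28 libraries, as the mean of 3 and 8 h less the control. The Clec4e response to Poly(I:C) differed without IFNAR by -1.19 ± 0.27 on the log2 scale, which missed the threshold (adjusted p = 0.055), and passed when the filter on low values was dropped (adjusted p = 0.026). Clec4d stood at -0.53 ± 0.15 (adjusted p = 0.11). For the CpG response of Clec4e the difference was -0.68 ± 0.27 (adjusted p = 0.25). In both, 0 of 7 members passed, against 1.16% of genes for Poly(I:C) and 1.9% for CpG. Of the 7, 2 had an unadjusted p under 0.05 with each stimulus, and voom called 0. As folds over the genotype's own control, Clec4e at 8 h of CpG was 4.57 in the double knockout, 7.19 in RelBko, 12.1 in IFNARko and 20.9 in WT cells. At 8 h of Poly(I:C) it was 1.37, 2.48, 3.63 and 7.24 in the same order of genotypes. WT showed the largest fold and the double knockout the smallest with both stimuli.

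Clec7a was lower with loss of RelB in all 4 contrasts. Only 1 or 2 of the 7 members were called lower in each, in part near the share of all genes. These counts are therefore not a result about the members as a set. Given CpG, RelBko cells had lower Clec7a than WT cells, at -0.69 ± 0.11 (adjusted p = 0.0013), and lower Clec4d, at -0.49 ± 0.12 (adjusted p = 0.019), 2 of 7 members against 3.3% of all genes. In the double knockout against IFNARko, Clec7a was lower, at -0.94 ± 0.11 (adjusted p = 3.5e-05), 1 of 7 members against 9.73% of all genes. With Poly(I:C), Clec7a was at -0.34 ± 0.09 in RelBko against WT cells (adjusted p = 0.025, 1 of 7 members, 4.76% of all genes). It was at -0.93 ± 0.09 in the double knockout against IFNARko cells (adjusted p = 5.3e-06). There Clec4a3 was also lower, at -0.86 ± 0.25 (adjusted p = 0.033), which made 2 of 7 members against 12% of all genes. Over the 7 conditions Clec7a stood at 0.473 to 0.846 of WT in RelBko cells and at 0.43 to 0.601 of IFNARko in double-knockout cells. Leaving out 1 time ended the calls of Clec4d in RelBko after CpG (without 3 h -0.55, adjusted p = 0.16, and without 8 h -0.38, adjusted p = 0.14), of Clec7a in RelBko after Poly(I:C) (-0.38 and -0.26, adjusted p = 0.16 and 0.051) and of Clec4a3 (-0.92 and -1.09, adjusted p = 0.18 and 0.064). Macrophage and monocyte markers were also lower in RelBko than in WT cells after CpG (10 of 19 lower, 1 higher, median -0.59). In the double knockout against IFNARko cells, dendritic cell markers were lower in 11 of 17 after CpG (median -0.47) and 12 of 17 with Poly(I:C) (median -0.45), each with 1 higher. The part of these markers was not tested.

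The order of RelBko and WT cells for Clec4e changed between times. In RelBko cells it was 1.59 of WT in the control and 1.44 of WT at 1 h of CpG, but 0.807 and 0.547 of WT at 3 and 8 h. The average over the times was -0.22 ± 0.27 (adjusted p = 0.71), -0.59 without 1 h (adjusted p = 0.014) and 0.11 without 8 h. In double-knockout against IFNARko cells it was 0.03 ± 0.27 with a 95% interval from -0.61 to 0.67 (adjusted p = 0.95). With Poly(I:C) the values were -0.30 ± 0.39 for RelBko against WT (adjusted p = 0.66) and 0.32 ± 0.39 for the double knockout against IFNARko (adjusted p = 0.57). The response of Clec4e differed in RelB-deficient from RelB-sufficient cells by -1.24 ± 0.27 with CpG (adjusted p = 0.17) and by -1.24 ± 0.27 with Poly(I:C) (adjusted p = 0.40), neither of which passed. In these contrasts 0 of 7 members passed, as did 0% of all genes for CpG and 0.00771% for Poly(I:C). Unadjusted p-values under 0.05 were seen for 3 members with CpG and 2 with Poly(I:C), and voom called 0 members.

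Whether the difference with RelB loss varied with IFNAR state was tested directly, in a contrast added after the data were seen. The term sets the double knockout and WT together against IFNARko and RelBko together. These are the Xist-positive and the Y-positive genotypes, so the term cannot be told apart from a difference in sex-linked transcripts. After CpG the difference for Clec4d was 0.68 ± 0.17 (adjusted p = 0.019), 1 of 7 members against 3.57% of all genes. Clec4d was lower in RelBko than in WT cells and not detectably different in double-knockout against IFNARko cells (0.19 ± 0.12, adjusted p = 0.26). With Poly(I:C) the difference for Clec7a was -0.60 ± 0.13 (adjusted p = 0.0073), 1 of 7 members against 6.54% of all genes, so Clec7a was lower with RelB loss by more where IFNAR was also absent. For 10 of 17 dendritic cell markers this term was also lower and for 1 higher (median -0.73), and their part was not tested. The same term was -0.25 ± 0.16 for Clec7a after CpG (adjusted p = 0.43) and 0.21 ± 0.26 for Clec4d after Poly(I:C) (adjusted p = 0.68). The Clec4d term lost its call without 3 h (0.72, adjusted p = 0.19) or 8 h (0.68, adjusted p = 0.064), and the Clec7a term without 3 h (-0.59, adjusted p = 0.14). Unstimulated controls were not part of this test but ran the same way. Clec4d was at 14.3 CPM in double-knockout against 10.6 CPM in IFNARko controls, and at 32.2 CPM in RelBko against 36.6 CPM in WT controls. Clec7a was at 442 against 768 CPM and at 847 against 1039 CPM in the same pairs. Whether these terms depend on the stimulus was not tested.

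**Figure D4:**
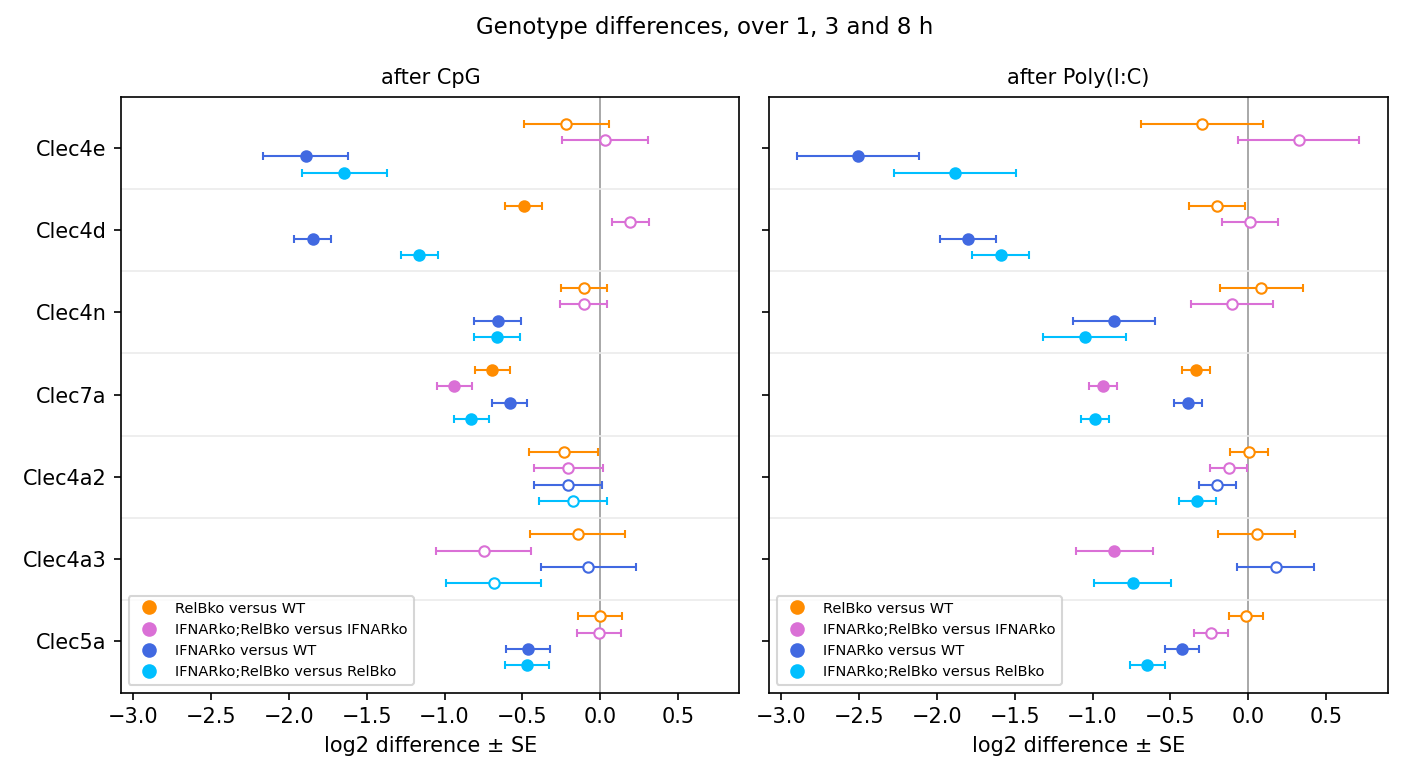
Log2 difference between genotypes for each gene over 1, 3 and 8 h of CpG (left) or Poly(I:C) (right), with bars for the SE. Filled points passed at an adjusted p of 0.05. The contrasts for IFNAR loss (blue) lie between -1.16 and -2.51 for Clec4e and Clec4d, and Clec7a is filled in all 8 contrasts.

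The signalling chain below these receptors was taken as a list of 24 adaptors, kinases and CARD9 partners, of which 23 were tested. At 8 h of CpG, 9 rose and 8 fell, where 15.3% of all genes were higher and 38.8% lower, with a median of 0.05 against -0.17 over all genes. The kinase Syk rose by 0.62 ± 0.06 (adjusted p = 1.9e-07), the adaptor Blnk by 1.21 ± 0.12 (adjusted p = 7.5e-07) and the kinase Fgr by 0.89 ± 0.11 (adjusted p = 6e-06). At 8 h of Poly(I:C), 8 rose and 4 fell (18.9% and 24.1% of all genes), among them Fgr by 0.96 ± 0.07 (adjusted p = 5.4e-08), Syk by 0.38 ± 0.05 (adjusted p = 2.8e-05) and Card9 by 0.43 ± 0.06 (adjusted p = 5.9e-05), all upward. In IFNARko against WT cells after CpG, 5 were higher and 4 lower (22.3% and 8.03% of all genes), with a median of 0.15 against 0.14 over all genes. Nfatc2, a calcium-activated transcription factor, was higher by 1.28 ± 0.15 (adjusted p = 2e-05) and the kinase subunit Pik3cd by 0.71 ± 0.14 (adjusted p = 0.002), while the DAP12 gene Tyrobp was lower, at -0.52 ± 0.09 (adjusted p = 0.00062). The FcRγ gene Fcer1g held 136 to 223 CPM and Syk 461 to 864 CPM over the 28 libraries. In RelBko against WT cells after CpG, 3 were higher and 0 lower (4.75% and 3.3% of all genes), led by the kinase Map3k7 at 0.62 ± 0.09 (adjusted p = 0.00042).

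The genes around the Clec4 cluster were described as a list of 16, of which 8 passed the filter. At 8 h of CpG 3 rose and 1 fell (15.3% and 38.8% of all genes): Clec4a1 rose by 1.97 ± 0.26 (adjusted p = 7.9e-05), the complement receptor gene C3ar1 by 0.39 ± 0.10 (adjusted p = 0.0026) and the RNA-editing enzyme gene Apobec1 by 0.30 ± 0.09 (adjusted p = 0.011), and Clec4b2 fell by 2.34 ± 0.18 (adjusted p = 2.4e-08). Neighbouring lectin genes thus moved in both directions. In IFNARko against WT cells after CpG, 3 of the 8 were lower and 2 higher (8.03% and 22.3% of all genes), with C3ar1 at -1.27 ± 0.12 (adjusted p = 2.6e-06) and the glucose transporter gene Slc2a3 at 1.55 ± 0.24 (adjusted p = 0.00051). Of 16 tested C/EBP, PU.1 and AP-1 factors, 5 rose and 5 fell at 8 h of CpG (15.3% and 38.8% of all genes), with Cebpd higher by 1.36 ± 0.21 (adjusted p = 0.0001), Batf higher by 1.27 ± 0.13 (adjusted p = 9.1e-07) and Fosb at -2.32 ± 0.23 (adjusted p = 4.2e-07).

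Likeness of the members' profiles across the 28 libraries was described by Pearson's r of log2 CPM plus 1 over libraries that share cultures, stimuli and controls. Clec4d and Clec4n had an r of 0.94, Clec4e and Clec4d 0.90, and Clec4e and Clec4n 0.86. Clec7a and Clec5a had an r of 0.71 and Clec4a2 and Clec4a3 0.72. Clec7a also had 0.63 with Clec4a2 and 0.62 with Clec4a3, whereas Clec4e had -0.21 with Clec7a and -0.18 with Clec5a. Among 9988 genes at a mean of at least 5 CPM, the genes most like Clec4e were the chemokine Cxcl3 (0.97), the itaconate enzyme Irg1 (0.96) and the myosin Myo10 (0.96). For Clec4d they were Pgd, an enzyme of the pentose phosphate pathway (0.97), Gstm1 (0.97) and the ferritin heavy chain Fth1 (0.97), and for Clec4n Pgd (0.96), Abcc5 (0.93) and the peroxiredoxin Prdx1 (0.93). For Clec7a they were the heparanase Hpse (0.96), C77080 (0.95) and arginase Arg1 (0.94). Clec5a was closest to Emp1 (0.94), Clec4a2 to the phospholipase Plcb2 (0.88) and Clec4a3 to Tbkbp1 (0.86).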

How the data were processed

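Polyadenylated RNA was sequenced from single ends as stranded libraries, per the labels' protocols. Listed in the submitters' processing notes are cutadapt and edgeR, with mm10 as the genome build. Which aligner, counter and annotation were used is not given in the sources used here. For each stimulus the authors deposited 1 sheet of values recorded as signal, which are CPM plus 1: the lowest value is 1, and values less 1 sum to 1000000 in the CpG sheet and to 998750 to 999250 in the Poly(I:C) sheet. The control columns are identical in both sheets. Entries without a gene name (2161 in the CpG sheet, 0.0733% to 0.116% of a library) and 11 repeated symbols were left out, leaving 24995 genes.

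Tests were run in R 4.3.3 with limma 3.58.1, its empirical Bayes step using a mean trend and the robust option (statmod 1.5.0). They used log2(CPM + 1), a pseudocount of 1, for genes at 1 CPM or more in at least 3 libraries of the fit, with Benjamini-Hochberg adjustment over all genes tested. Tests were two-sided, and called genes are those with an adjusted p below 0.05. Each group holds 1 library, so responses take their spread from the 4 genotypes, with genotype as a block, and differences in genotype from the 3 times, with time as a block. The scripts were tested on simulated data. Reads per library limit the precision, and errors on low values cover more than counting. The count test planned for whole reads was not run, because the deposited unit is not a count. limma's voom on whole reads, computed from the values (100% within 0.001 of a whole number), stands in its place and was chosen after seeing the data. Alternatives were a pseudocount of 0.25, no filter, median-ratio size factors, and leaving out the 2 libraries of lowest depth or each genotype or time.

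The members, 12 gene lists and tests were chosen with earlier results of these data known. Genes named are the members, Relb and Ifnar1, up to 4 genes per list and contrast with the lowest adjusted p, and 3 genes most like each member. Xist, markers by their sums, and a few genes given as levels lie outside that rule, and 1 gene that it would name is not reported here. Coordinates are from GENCODE M21 (GRCm38).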

Additional observations from a re-analysis of the deposited data

Results flagged for a closer look

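The effect of RelB loss on Clec4d after CpG differed between IFNAR states by 0.68 ± 0.17 on the log2 scale (limma, adjusted p = 0.019). Clec4d was at -0.49 ± 0.12 in RelBko against WT cells, and the double knockout stood at 0.19 ± 0.12 against IFNARko. The effect of RelB loss on Clec7a after Poly(I:C) differed by -0.60 ± 0.13 (adjusted p = 0.0073). Clec7a was at -0.93 ± 0.09 in the double knockout against IFNARko cells and at -0.34 ± 0.09 in RelBko against WT cells. Both differences were noticed for a closer look because the test of the difference itself passed, and both rest on 3 times with 1 library per genotype. Both set the Xist-positive genotypes (double knockout and WT) against the Y-positive ones, so they cannot be told apart from a difference in sex-linked transcripts. Unstimulated controls, which these tests left out, ran the same way for both genes, and whether either difference depends on the stimulus was not tested.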

How the results depend on the processing

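Pairing by replicate was not possible because each group holds 1 library and no replicate numbers are shared. Genotype or time is already a block in the fits. The planned count test was not run, since the deposited unit is not a count. Without the 2 libraries of lowest depth (CpG 8 h of the double knockout and IFNARko), the members called were 7 in place of 4 for CpG at 3 h, 3 in place of 1 for the double knockout against IFNARko after CpG, 2 in place of 1 for RelB loss by IFNAR state after CpG, 1 in place of 0 for the Poly(I:C) response by IFNAR state, and 5 in place of 3 for CpG against Poly(I:C) at 3 h. Voom called 2 in place of 1 for the double knockout against IFNARko after CpG, where Clec4a3 was at -0.75 ± 0.31 (adjusted p = 0.12) and then at -0.94 (adjusted p = 0.03). Without the filter, 1 in place of 2 was called for that contrast after Poly(I:C), and 1 in place of 0 for the Poly(I:C) response by IFNAR state. Leaving out 1 genotype or time gave ranges of 0 to 0 for responses at 1 h and CpG against Poly(I:C) at 1 h, 4 to 6 and 5 to 7 for CpG at 3 and 8 h, 2 to 5 and 4 to 6 for Poly(I:C) at 3 and 8 h, and 2 to 4 and 3 to 5 for CpG against Poly(I:C) at 3 and 8 h. After CpG they were 1 to 3 for RelBko against WT and for the double knockout against IFNARko, 2 to 6 for IFNARko against WT, 2 to 7 for the double knockout against RelBko and 0 to 1 for RelB loss by IFNAR state. After Poly(I:C) they were 0 to 1, 1 to 2, 2 to 6, 3 to 6 and 0 to 2 in the same order. Signs turned, among values that did not pass, for Clec4a3 at 8 h of Poly(I:C) without the double knockout (-0.15, range when leaving out 1 genotype -0.15 to 0.28), for Clec4e in RelBko against WT after CpG without 8 h (0.11, range -0.59 to 0.11), for Clec4e in the double knockout against IFNARko after CpG with median-ratio size factors (-0.081) or without 1 h (-0.056, range -0.056 to 0.13), and for Clec4n in CpG against Poly(I:C) at 8 h without the double knockout (-0.15, range -0.15 to 0.20), without the 2 libraries of lowest depth (-0.18) and with voom (-0.059). Over all genes, 138 of 173 counts stayed within 1.5 times. The cause was not tested. Depth was lowest in 2 of the 4 CpG 8 h libraries (IFNARko and the double knockout), where a given CPM rests on the fewest reads.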

Other observations

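Other C-type lectin receptors were described as a list of 32 genes, of which 18 were tested for the responses. At 8 h of CpG, 3 rose and 9 fell, where 15.3% of all genes were higher and 38.8% lower, with a median of -0.44 against -0.17 over all genes. The galactose-type lectin gene Mgl2 fell by 1.94 ± 0.08 (limma, adjusted p = 2.5e-11), the mannose receptor gene Mrc1 fell by 2.43 ± 0.16 (adjusted p = 3.7e-08) and Clec4b2 fell by 2.34 ± 0.18 (adjusted p = 2.4e-08), while Ly75, which encodes DEC-205, rose by 1.45 ± 0.12 (adjusted p = 1.8e-07). At 8 h of Poly(I:C), 7 rose and 5 fell (18.9% and 24.1% of all genes), with Mgl2 at -1.16 ± 0.08 (adjusted p = 3.8e-08) and Clec2d at 0.88 ± 0.19 (adjusted p = 0.004). In IFNARko against WT cells after CpG, 5 were higher and 4 lower of 17 tested (22.3% and 8.03% of all genes), with Mrc1 at -2.15 ± 0.20 (adjusted p = 7.2e-06) and Clec12a, an ITIM receptor, at 1.13 ± 0.20 (adjusted p = 0.0009).

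Genes listed as inhibitory ITIM receptors and their phosphatases moved in both directions. The list includes Clec12a and Clec2d, which are also counted among the other C-type lectin receptors. Whether Clec2d carries an ITIM was not checked. Of 12 tested, 6 rose and 4 fell at 8 h of CpG (15.3% and 38.8% of all genes), with a median of 0.25. Siglece rose by 2.53 ± 0.21 (adjusted p = 4.8e-08), Pilra by 2.06 ± 0.12 (adjusted p = 1.1e-09) and Pirb by 1.09 ± 0.06 (adjusted p = 6.8e-10), whereas Cd300lf fell by 1.93 ± 0.12 (adjusted p = 1e-08). Of 19 other ITAM-coupled receptors, 5 rose and 8 fell at that time, against the same shares of all genes, with Trem2 at -1.31 ± 0.06 (adjusted p = 1.4e-10) and the Fc receptor gene Fcgr3 at -1.05 ± 0.08 (adjusted p = 3.5e-08). In IFNARko against WT cells after CpG, 11 of the 19 were lower (8.03% of all genes) and 1 was higher (22.3%), with a median of -0.68 against 0.14 over all genes. Trem2 was at -1.30 ± 0.08 (adjusted p = 7.6e-08) and Cd300ld at -2.09 ± 0.24 (adjusted p = 2e-05). Of 15 tested target genes of Syk and CARD9 signalling, 0 were higher and 7 lower in the double knockout against IFNARko after CpG, where 9.73% of all genes were lower, with Tnf at -1.19 ± 0.16 (adjusted p = 0.00033). Summed, this list rose with CpG itself, from 134 CPM in the control to between 697 and 1579 CPM in the double knockout. In IFNARko it rose from 201 CPM to between 952 and 2986 CPM. Signalling through the lectin receptors was not tested. Neutrophil markers (17 of 17) summed to 198 to 423 CPM in double-knockout, 309 to 538 in RelBko, 174 to 260 in IFNARko and 223 to 453 CPM in WT cells.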
